A study of Macaca mulatta with 30 samples.

Results

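Fibroblast growth factor (FGF) signalling of lung branching was followed through 10 genes, taken by their symbols. They were the ligands FGF7 and FGF10, the receptors FGFR1, FGFR2, FGFR3 and FGFR4, the feedback inhibitors SPRY1 and SPRY2, and the target transcription factors ETV4 and ETV5. Of the 10 genes, 8 matched an identifier among the 30246 of the lung count table, of which 15769 carried a symbol. They were FGF7 (ENSMMUG00000009842), FGFR1 (ENSMMUG00000022478), FGFR2 (ENSMMUG00000009594), FGFR3 (ENSMMUG00000019945), SPRY1 (ENSMMUG00000001848), SPRY2 (ENSMMUG00000018292), ETV4 (ENSMMUG00000014633) and ETV5 (ENSMMUG00000013610). FGF10 and FGFR4 matched none in lung, so no lung value is given for either. The 8 matched genes were among the 17644 identifiers with enough counts to be tested, that is, at least 7 counts in at least 3 libraries.

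In the developing lung, FGF10 secreted by the mesenchyme around growing buds acts on FGFR2 of the epithelium and draws the buds out, while FGF7, a second mesenchymal ligand of the same receptor, promotes growth and differentiation of the epithelium. Active receptors signal through RAS and the MAP kinase cascade to the ETS factors ETV4 and ETV5, whose transcripts are commonly read as a sign of FGF activity. Sprouty proteins are induced by the same cascade and dampen it.

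Pregnant rhesus macaques had received a single intramuscular injection, and RNA of the fetal lung and hippocampus was sequenced. The 15 lung libraries, all from wild-type fetuses labelled gestational day 124 to 130, formed 5 groups of 3. These were saline controls, whose lung labels give no interval, the clinical drug (Celestone, equal parts betamethasone phosphate and betamethasone acetate, 0.25 mg/kg) delivered at 4 h or at 5 days, and betamethasone acetate alone (Beta-Ac, 0.125 mg/kg) delivered at 6 h or at 5 days. The 15 hippocampus libraries, all labelled 5 days after injection, formed 3 groups of 5. They came from saline controls of gestational day 130 to 135, clinical drug fetuses of day 131 to 136 and Beta-Ac fetuses of day 132 to 133. Replicates are separate animals, and 9 animals gave a library of both tissues. The 3 lung saline animals are among them, and their hippocampus labels give 5 days after injection. The 4 h and 6 h lung groups therefore have no saline controls labelled with their own interval. For each of these 9 the hippocampus label gives a later day (131 to 136) than the range of the lung labels, and the labels do not say what either day marks. The drugs differed in dose, in the early time point and in the phosphate ester, which only the clinical drug holds. The hippocampus groups follow the sample titles, which match the lung labels of the same animals; the treatment and dose fields of the hippocampus samples name the drugs the other way round.

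The lung libraries held 14073002 to 28994499 counts, except clinical drug 4 h replicate 1 with 45033799, and the hippocampus libraries held 18280762 to 29301058. The least counted of the lung genes, ETV4, had 58 to 182 counts per library, and ETV5 had 579 to 3911. Levels are CPM, the count of a gene scaled to a common library total, after TMM scaling within a tissue, and they are not compared between genes, since they were not divided by gene length. Where a gene of a list is named as its highest, it has the highest mean CPM over the 15 libraries of the tissue, a rank of scaled counts and not of transcripts.

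The labels held in the marker genes. Alveolar type 2 markers, which define surfactant-making cells, were present in every lung library, with summed levels of 7294 to 17947 CPM, SFTPC the highest of 5 of 5 tested and none at 0. Hippocampal neuron markers summed to 3.63 to 10.6 CPM in lung and to 1661 to 2659 CPM in hippocampus. FKBP5, a gene that glucocorticoids induce, stood at 5.83, 5.27 and 5.72 CPM in the saline lungs, at 219, 120.2 and 179 CPM 4 h after the clinical drug and at 18.9, 31.2 and 106 CPM 6 h after Beta-Ac, and at 5.78 to 6.68 CPM in the 5 day lungs.

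Several libraries stood apart. In lung saline replicate 1, 37 consecutive identifiers without a symbol took 1.02% of the counts, against 4.56% to 6.71% in the other lung libraries. The hippocampus library of the same animal, saline replicate 1, gave 0.749% and Beta-Ac replicate 4 gave 0.721%, against 7.37% to 17.5% in the other hippocampus libraries. Hippocampus saline replicate 5 held 926 CPM of choroid plexus markers (4 of 6 tested, CLIC6 the highest, none at 0), against 2.01 to 18.4 CPM in the other 14 hippocampus libraries.

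A gene was called differentially expressed at a p under 0.05, a fold change of at least 1.5 and an adjusted p under 0.1 over all genes of the tissue. The first comparison set the clinical drug at 4 h against the saline controls, which are not labelled with that interval. ETV5 rose, and it alone of the 8 tested FGF genes was called, beside 7.40% of all genes (1306 of 17644, 611 higher and 695 lower). By adjusted p alone, ETV5, SPRY1 and FGFR1 passed, 3 of 8 beside 11.9% of all genes. The median log2 fold change of the 8 genes was −0.19 and that of all genes 0.02, and 3 of the 8 were positive. Beside that background, 1 called gene is no result about the group as a whole.

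**Figure D1:**
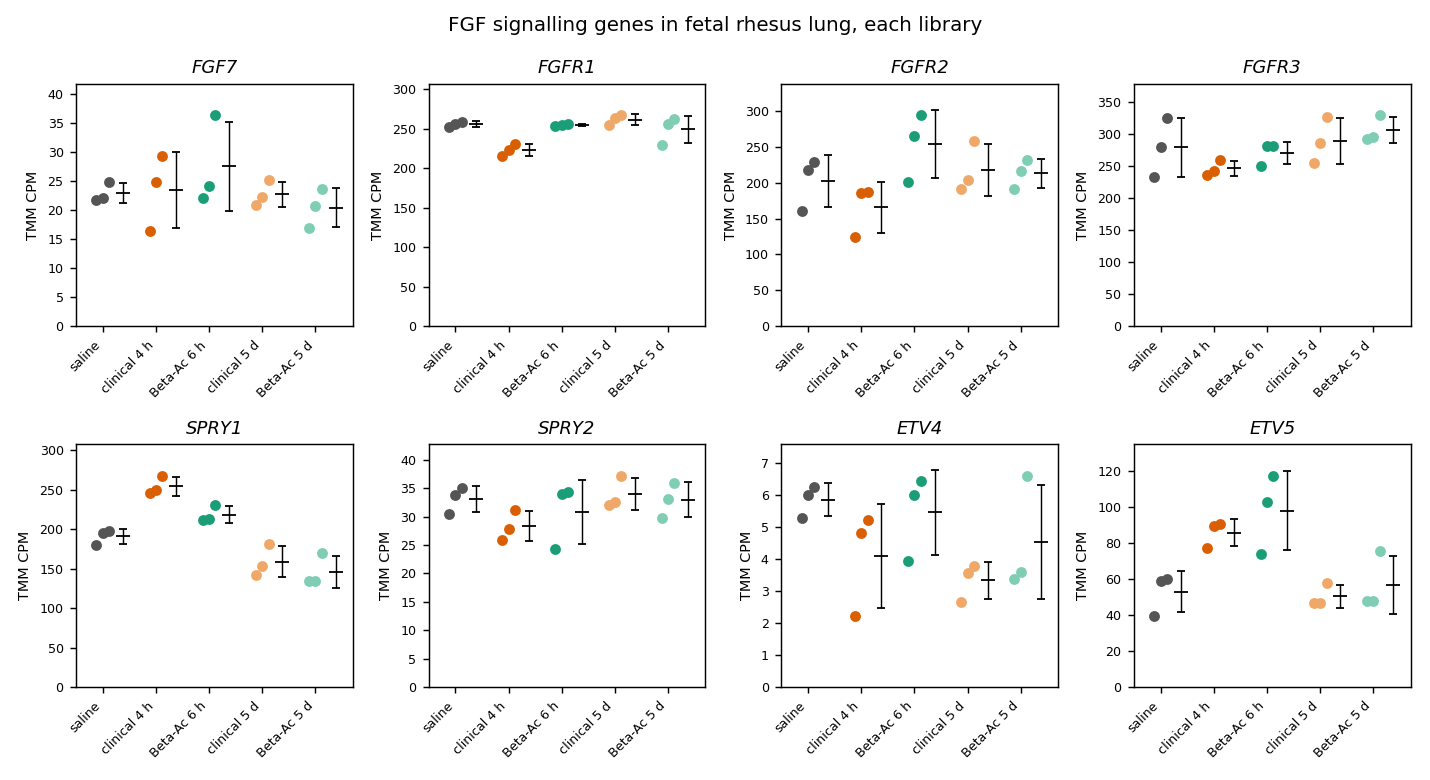
TMM CPM (y axis) of the 8 matched FGF genes in each of the 15 fetal lung libraries, by group (x axis), with the points of a group sorted by value and bars at the mean ± SD. ETV5 lay at 77.2 to 90.6 CPM 4 h after the clinical drug and at 73.9 to 117 CPM 6 h after Beta-Ac, above the 39.6 to 59.8 CPM of saline.

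ETV5, an ETS factor switched on by FGF receptors in the distal epithelium, stood at 59.8, 39.6 and 59.0 CPM in saline replicates 1 to 3 and at 90.6, 77.2 and 89.5 CPM 4 h after the clinical drug. Every clinical drug library lay above every saline library, and saline replicate 2 was the lowest of the 6. The log2 fold change was 0.70 ± 0.21 (SE), a 1.62-fold rise (adjusted p = 0.0479). In these bulk samples, a change in the number of cells of a type and a change in RNA per cell cannot be told apart. ETV4, a close relative of ETV5 with which it overlaps in function, stood at 5.29, 6.02 and 6.27 CPM in saline and at 2.22, 5.23 and 4.82 CPM at 4 h. All 3 treated values lay under the saline values, with clinical drug replicate 1 the lowest, but the difference of −0.54 ± 0.34 did not pass (adjusted p = 0.301).

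SPRY1, an inhibitor that feeds back on the RAS and MAP kinase cascade, stood at 180.4, 198 and 195 CPM in saline and at 246, 249 and 267 CPM at 4 h. The groups did not overlap, and the log2 fold change of 0.41 ± 0.11 passed by adjusted p (0.0264) but at 1.33-fold lay under the 1.5-fold threshold. SPRY2, the related inhibitor, stood at 35.0, 30.5 and 33.8 CPM in saline and at 31.1, 27.7 and 25.9 CPM at 4 h. Those groups overlapped, and the difference was −0.23 ± 0.14 (adjusted p = 0.283).

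FGFR1, a receptor found in the mesenchyme as well as the epithelium, stood at 256, 252 and 259 CPM in saline and at 231, 215 and 223 CPM at 4 h. Every treated library lay below every saline library, for a gene whose coefficient of variation over the 15 lung libraries was 6.42%. The difference of −0.20 ± 0.07 passed by adjusted p alone (0.0897). FGFR2, the epithelial receptor of FGF7 and FGF10, stood at 228, 161 and 218 CPM in saline and at 187, 185 and 125 CPM at 4 h, groups that overlapped (−0.29 ± 0.19, adjusted p = 0.312). Gene counts do not separate its epithelial and mesenchymal splice forms. FGFR3, a receptor that takes part in later alveolar growth, ranged from 233 to 325 CPM in saline and from 236.7 to 259 CPM at 4 h (−0.18 ± 0.12), and the ligand FGF7 from 21.8 to 24.9 CPM and from 16.4 to 29.4 CPM (0.04 ± 0.21). Neither passed.

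The ETV5 call ended without saline replicate 2 (0.53, adjusted p = 0.163), without clinical drug 4 h replicate 1 (0.64, 0.109) or replicate 3 (0.65, 0.112), and with no normalization factor, an alternative chosen after seeing the data (0.58, 0.0865), with adjusted p from 0.0174 to 0.163 over its 15 alternatives. SPRY1 missed the adjusted p without saline replicate 1, the library that stood apart (0.35, 0.117, range 0.00591 to 0.117), and FGFR1 missed it without any 1 of saline replicates 1, 2 and 3 (0.152, 0.146 and 0.195) and clinical drug replicates 2 and 3 (0.179 and 0.141), with Benjamini-Hochberg (0.131), with no filter on low counts (0.253) and with only these 2 groups (0.212; lowest 0.0147). With no normalization factor, the median of all genes in this comparison shifted by −0.12, and 453 genes were called higher and 1070 lower.

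Alveolar type 2 markers moved in the same libraries. Their summed level was 7796, 7294 and 11158 CPM in saline replicates 1 to 3 and 17947, 11773 and 15079 CPM at 4 h, and 3 of 5, SFTPC, ABCA3 and LAMP3, rose (log2 fold changes 1.13, 0.93 and 1.25). The wider epithelial markers (4 of 5 tested, NKX2-1 the highest, none at 0) summed to 602, 465 and 482 CPM in saline and to 570.1, 659 and 530.3 CPM at 4 h, with none called. Mesenchymal markers (5 of 7 tested, COL3A1 the highest, none at 0) summed to 12419, 10640.1 and 16440 CPM and to 13776, 11806 and 14162 CPM, with none called. Alveolar type 1 markers (5 of 5 tested, AGER the highest, none at 0) summed to 1352, 2157 and 1934 CPM and to 2363, 2679 and 1958 CPM, with HOPX higher (1.29) and RTKN2 lower (−0.65). Leukocyte markers (4 of 5 tested, PTPRC the highest, none at 0) summed to 67.2, 59.8 and 51.1 CPM and to 82.3, 25.4 and 69.0 CPM, with PTPRC and CD3E lower (−1.28 and −2.09) and CD163 higher (1.81). Their part in the FGF results was not tested.

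The second comparison set Beta-Ac at 6 h against the same saline controls. ETV5 stood at 117, 73.9 and 103 CPM, above every saline library, and its log2 fold change of 0.89 ± 0.21, or 1.85-fold, missed the adjusted threshold (adjusted p = 0.113). So edgeR called 0 of the 8 FGF genes, beside 0.442% of all genes (78 of 17644). At an unadjusted p under 0.05 there was 1, ETV5, and DESeq2 called 1, ETV5, beside 2021 and 274 of all genes. The median log2 fold change of the 8 was 0.09, and that of all genes 0.02. Alveolar type 2 markers moved too, with 5 of 5 positive (median 0.68) and 0 called. Of the airway markers, 4 of 4 tested were positive (median 1.42) and 0 were called. The wider epithelial markers had 2 of 4 positive (median 0.025) and 0 called. The part of these markers in the ETV5 value was not tested.

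SPRY1 stood at 211, 213 and 231 CPM, again above every saline library, with a difference of 0.19 ± 0.11 (adjusted p = 0.39). The remaining members overlapped saline. FGFR2 reached 294, 202 and 265 CPM (0.32 ± 0.19, adjusted p = 0.398), and FGF7 36.4, 24.2 and 22.2 CPM (0.26 ± 0.21), where Beta-Ac replicate 1 was the highest of all 15 lung libraries for both genes. FGFR1 at 254, 256 and 253 CPM lay within the saline range (−0.01 ± 0.07), and FGFR3, SPRY2 and ETV4 differed by −0.05, −0.10 and −0.10. ETV5 passed all thresholds without Beta-Ac 6 h replicate 2 (1.04, adjusted p = 0.0486) and in DESeq2 (0.88, 0.00812), with adjusted p up to 0.454 over its 15 alternatives. The count of all genes called fell to 9 without saline replicate 1, to 12 without Beta-Ac 6 h replicate 3 and to 26 and 48 without saline replicates 2 and 3, and it was 211 without Beta-Ac 6 h replicate 2 and 19 with only these 2 groups.

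**Figure D2:**
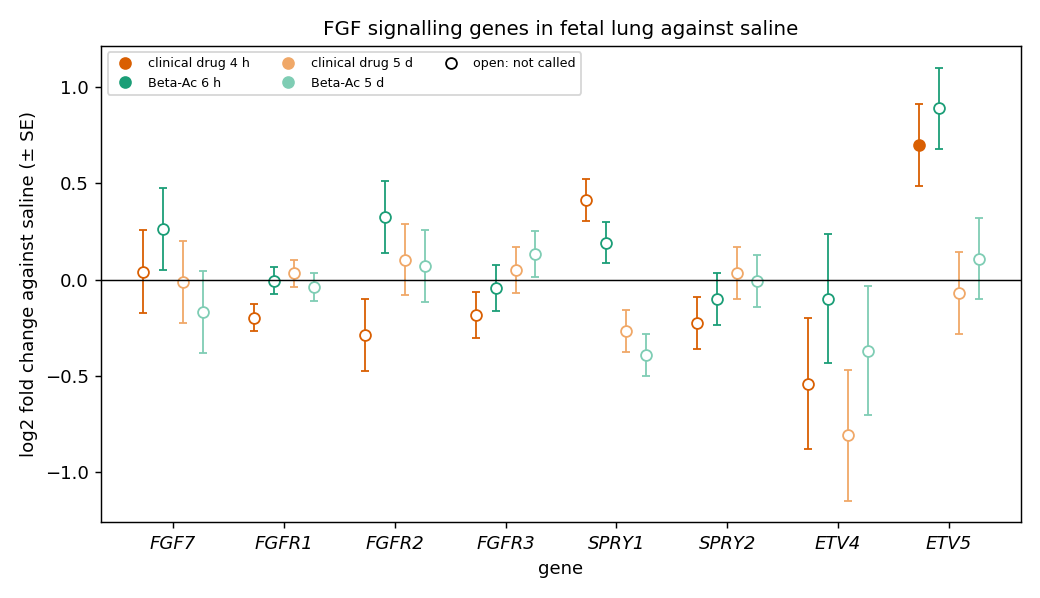
Log2 fold change against saline (y axis, ± SE) of the 8 matched FGF genes (x axis) in the 4 treated lung groups, with filled points for called genes and open points for the others. ETV5 was at 0.70 and 0.89 in the early groups and at −0.07 and 0.11 at 5 days, and SPRY1 was at 0.41 and 0.19 early and at −0.27 and −0.39 at 5 days.

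The early groups of the 2 drugs were then compared directly. They differ in dose and in time, so the difference is not one between the drugs alone. The animal numbers of the clinical drug group all begin with 15 and those of the Beta-Ac group with 16 or 17; the labels do not say what these stand for, and it cannot be told apart from the drug. FGFR2 was lower 4 h after the clinical drug, at 187, 185 and 125 CPM, than 6 h after Beta-Ac, at 294, 202 and 265 CPM; against saline the differences were −0.29 and 0.32, and neither passed. The groups did not overlap, clinical drug replicate 3 was the lowest of all 15 lung libraries, and the log2 fold change was −0.61 ± 0.19 (0.654-fold, adjusted p = 0.0509). FGFR2 alone of 8 was called, beside 6.74% of all genes (1189, 463 higher and 726 lower), and with FGFR1, 2 passed by adjusted p alone, beside 13.5%. FGFR1 was lower in every clinical drug library (−0.19 ± 0.07, adjusted p = 0.088). ETV5, whose groups overlapped, differed by −0.19 ± 0.21 (adjusted p = 0.399), so the ETV5 call in 1 drug and not in the other is not a shown difference between them. SPRY1 was higher in every clinical drug library, by 0.22 ± 0.11, without passing (adjusted p = 0.167), and ETV4, FGF7, FGFR3 and SPRY2 differed by −0.44, −0.22, −0.14 and −0.13. The median was −0.19 for the 8 genes and −0.02 for all genes.

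The FGFR2 call ended without clinical drug 4 h replicate 3 (−0.45, adjusted p = 0.147), without Beta-Ac 6 h replicate 1 (−0.49, 0.133) or replicate 3 (−0.58, 0.116), and with only these 2 groups fitted (−0.61, 0.155), where the range over 15 alternatives was 0.0183 to 0.155; FGFR1 missed the adjusted p without any 1 of clinical drug replicates 2 and 3 (0.208 and 0.156) and Beta-Ac replicates 1, 2 and 3 (0.145, 0.14 and 0.149), with Benjamini-Hochberg (0.142), with no filter on low counts (0.288) and with only these 2 groups (0.245; lowest 0.0244). The count of all genes was 667 without clinical drug 4 h replicate 2, 1971 without replicate 1, 314 with only these 2 groups and 724 with no filter on low counts, and with no normalization factor 352 were higher and 1028 lower. The epithelial markers, in whose cells FGFR2 acts as the receptor of FGF10, summed to 578, 475 and 614 CPM in the Beta-Ac libraries, a range that overlaps the 530.3 to 659 CPM of the clinical drug, with none called. Airway markers (4 of 5 tested, SCGB3A2 the highest, none at 0) summed to 206, 225 and 472 CPM after Beta-Ac and to 318, 135 and 77.2 CPM after the clinical drug, with none called, 0 of the 4 positive and a median of −0.96. Other markers passed the thresholds. Alveolar type 1 markers summed to 1620, 2672 and 1736 CPM after Beta-Ac, with HOPX higher after the clinical drug (1.18), endothelial markers to 2752, 2762 and 2927 CPM against 2620, 2403 and 3317 CPM, with KDR lower (−0.86), and leukocyte markers to 49.8, 62.6 and 65.7 CPM, with PTPRC and CD3E lower (−1.10 and −2.02). Of the red blood cell markers (2 of 5 tested, ALAS2 the highest), HBA1 was lower, at a mean of 0.127 against 1.16 ± 1.51 CPM (mean ± SD), a Beta-Ac mean that rests on 1 library at 2.89 CPM, and it was at 0 in clinical drug replicate 3. The part of these markers in the result was not tested.

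At 5 days, ETV5 was back among the saline values, at 46.8, 57.7 and 46.5 CPM after the clinical drug and 47.7, 47.6 and 75.5 CPM after Beta-Ac. Beta-Ac replicate 3 was the only 1 of these 6 libraries above the highest saline library. SPRY1 lay low in both groups, at 181, 142 and 154 CPM after the clinical drug and 134, 169 and 134 CPM after Beta-Ac. All 3 Beta-Ac libraries lay under the saline range, and 1 clinical drug library, replicate 1, reached it. The differences were −0.27 ± 0.11 (adjusted p = 0.931) and −0.39 ± 0.11 (adjusted p = 0.656). ETV4 stood at 2.67, 3.78 and 3.57 CPM after the clinical drug, each under the saline range (−0.81 ± 0.34, adjusted p = 0.931), and at 6.60, 3.40 and 3.61 CPM after Beta-Ac, where replicate 1 lay above it (−0.37 ± 0.34).

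In edgeR, 0 of the 8 genes were called 5 days after the clinical drug, beside 0% of all genes, and 0 after Beta-Ac, beside 0.00567% (1 gene). At an unadjusted p under 0.05 there were 2 FGF genes, SPRY1 and ETV4, after the clinical drug and 1, SPRY1, after Beta-Ac, among 775 and 1133 of all genes. DESeq2 called 0 of the 8 in both, and 16 and 38 of all genes. The medians were 0.01 and −0.02 for the FGF genes and 0.00 and 0.01 for all genes. The receptors and FGF7 overlapped saline in both groups, with differences from −0.17 (FGF7 after Beta-Ac) to 0.13 (FGFR3 after Beta-Ac). Of all genes, 9 were called after the clinical drug without saline replicate 3 and 1 without saline replicate 2, and the 1 gene after Beta-Ac was lost without saline replicate 1 or 2 or any Beta-Ac replicate (0 each) and 2 were called without saline replicate 3. With no filter on low counts 1 and 2 genes were called after the 2 drugs, and with only the 2 groups 7 after Beta-Ac.

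At 5 days the time was matched and the dose was not. No FGF gene differed between the drugs (edgeR 0 of 8, beside 0% of all genes, with 0 of the 8 at an unadjusted p under 0.05 and 0 in DESeq2; of all genes, 556 and 7, with 1 called without clinical drug 5 day replicate 2). The difference of clinical drug minus Beta-Ac was −0.18 for ETV5 (95% interval −0.63 to 0.27), 0.12 for SPRY1 (−0.11 to 0.35), 0.03 for FGFR2 (−0.37 to 0.43) and −0.44 for ETV4 (−1.16 to 0.28). For FGF7 it was 0.16 (−0.30 to 0.61), for FGFR1 0.07 (−0.08 to 0.22), for FGFR3 −0.08 (−0.34 to 0.17) and for SPRY2 0.04 (−0.25 to 0.33). A p that misses the threshold does not show that they act alike.

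The difference between early and late was tested within each drug, on the same early libraries as above. For the clinical drug, SPRY1 and ETV5 were higher at 4 h than at 5 days. SPRY1 went from 181, 142 and 154 CPM at 5 days to 246, 249 and 267 CPM at 4 h, with no overlap (0.68 ± 0.11, 1.6-fold, adjusted p = 0.00106). ETV5 went from 46.8, 57.7 and 46.5 CPM to 90.6, 77.2 and 89.5 CPM, also apart (0.77 ± 0.21, 1.7-fold, adjusted p = 0.0223). Both stayed called in 15 of 15 alternatives. That made 2 of 8 called, beside 10.4% of all genes (1833, 789 higher and 1044 lower; 621 and 1377 with no normalization factor), and 3 of 8 by adjusted p alone, beside 18.7%. FGFR1 was the third, lower in every 4 h library (−0.23 ± 0.07, adjusted p = 0.0379); it missed the threshold without clinical drug 5 day replicate 1 (−0.22, 0.106) or replicate 2 (−0.21, 0.12) and with no filter on low counts (0.119), where the lowest over the alternatives was 0.00186. FGFR2 and SPRY2 were lower in every 4 h library too, by −0.39 and −0.26, without passing (adjusted p = 0.138 and 0.164). The median of the 8 was −0.09 and that of all genes 0.00. The animal numbers of the 5 day group all begin with 16 and those of the 4 h group with 15.

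Cell type markers moved in this comparison too. In the 5 day libraries, alveolar type 2 markers summed to 11794, 8719 and 10842 CPM, type 1 markers to 1912, 1765 and 1835 CPM, endothelial markers to 2722, 2502 and 2603 CPM and leukocyte markers to 64.0, 60.9 and 55.3 CPM, beside the 4 h sums given above. At 4 h, SFTPC and LAMP3 (0.90 and 1.19), HOPX (1.77), VWF (1.13) and CD163 (1.56) were higher, and CLIC5 (−0.62), KDR (−1.23), PTPRC (−1.22) and CD3E (−2.08) were lower. The part of these markers in the SPRY1 and ETV5 results was not tested.

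For Beta-Ac, SPRY1 was higher at 6 h than at 5 days in all libraries (211, 213 and 231 CPM against 134, 169 and 134 CPM), with a log2 fold change of 0.58 ± 0.11 (adjusted p = 0.0632), just under 1.5-fold. ETV5 differed by 0.78 ± 0.21 (adjusted p = 0.224), and its groups overlapped through Beta-Ac 6 h replicate 2 at 73.9 CPM and 5 day replicate 3 at 75.5 CPM. FGF7 differed by 0.43 ± 0.21 (adjusted p = 0.585). With edgeR 0 of 8 were called, beside 0.261% of all genes (46), and 1 passed by adjusted p alone, SPRY1, beside 0.306%. At an unadjusted p under 0.05 there were 2, SPRY1 and ETV5, and DESeq2 called 1, ETV5, beside 1396 and 182 of all genes. The median of the 8 was 0.26, with 6 positive, and that of all genes 0.01. SPRY1 passed all thresholds without Beta-Ac 5 day replicate 2 (0.70, adjusted p = 0.0412) and without Beta-Ac 6 h replicate 1 (0.61, 0.0948), and missed the adjusted p without Beta-Ac 5 day replicate 1 (0.52, 0.253) or replicate 3 (0.51, 0.262), without Beta-Ac 6 h replicate 3 (0.54, 0.287) and with only these 2 groups (0.57, 0.284; range 0.000402 to 0.287). ETV5 passed them without Beta-Ac 6 h replicate 2 (0.93, 0.0955) and in DESeq2 (0.77, 0.0471), with adjusted p up to 0.661, and the count of all genes was 8, 10 and 5 without Beta-Ac 5 day replicates 1, 2 and 3, 11 without Beta-Ac 6 h replicate 3, 98 without its replicate 2, 9 with only these 2 groups and 29 with Benjamini-Hochberg.

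Across the 5 lung groups, SPRY1 ran from 254 ± 11.6 CPM (mean ± SD) 4 h after the clinical drug through 218 ± 10.9 CPM 6 h after Beta-Ac, 191 ± 9.40 CPM in saline and 159 ± 20 CPM 5 days after the clinical drug to 146 ± 20.3 CPM 5 days after Beta-Ac. No pair of neighbours in that order was called different. ETV5 formed a high pair, 98.0 ± 22.0 CPM after Beta-Ac at 6 h and 85.8 ± 7.41 CPM after the clinical drug at 4 h, and a low set of 56.9 ± 16.1, 52.8 ± 11.4 and 50.3 ± 6.38 CPM in Beta-Ac 5 day, saline and clinical drug 5 day lungs, within which the spread exceeded the differences. FGFR2 was ordered Beta-Ac 6 h, clinical drug 5 days, Beta-Ac 5 days, saline and clinical drug 4 h, at 253 ± 47.2, 218 ± 36.0, 213 ± 20.5, 202 ± 36.3 and 166 ± 35.3 CPM, and no neighbours that were compared were called different (Beta-Ac 6 h and clinical drug 5 days were not compared). FGFR1 ran 261 ± 6.63, 256 ± 3.66, 255 ± 1.44 and 249 ± 17.1 CPM in clinical drug 5 day, saline, Beta-Ac 6 h and Beta-Ac 5 day lungs, with the clinical drug at 4 h lowest at 223 ± 7.92 CPM. For FGFR3 the order from 306 ± 20.4 CPM was Beta-Ac 5 days, clinical drug 5 days, saline, Beta-Ac 6 h and clinical drug 4 h at 246 ± 11.7 CPM. ETV4 was highest in saline at 5.86 ± 0.509 CPM, followed by Beta-Ac 6 h, Beta-Ac 5 days, clinical drug 4 h and clinical drug 5 days at 3.34 ± 0.586 CPM, and for neither gene were compared neighbours called different (Beta-Ac 5 days and clinical drug 4 h were not compared). SPRY2 means lay between 28.3 ± 2.64 and 33.9 ± 2.82 CPM and FGF7 means between 20.4 ± 3.38 and 27.6 ± 7.69 CPM. The coefficient of variation over the 15 libraries rose from 6.42% for FGFR1 through 11.5% for SPRY2 and FGFR3, 20.1% for FGFR2, 20.5% for FGF7 and 22.1% for SPRY1 to 30.9% for ETV4 and 33.8% for ETV5.

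Other genes of the pathway were taken from lists by role, and each list is described beside all genes 4 h after the clinical drug, whose median was 0.02 and of which 7.40% were called (611 higher and 695 lower of 17644). Among 16 other FGF ligands, 4 were tested and edgeR called 0 (median 0.12), with 1 at an unadjusted p under 0.05 and 1 in DESeq2, both FGF18. FGF18, a ligand of mesenchyme and alveolar growth with the highest mean of that list, stood at 7.49, 7.94 and 5.07 CPM in saline and 2.99, 4.71 and 4.88 CPM at 4 h, below every saline library, and did not pass (−0.72 ± 0.27, adjusted p = 0.105). It passed without saline replicate 3 (−0.89, 0.0828), with filterByExpr (−0.73, 0.0985), in DESeq2 (−0.73, 0.0663) and with no normalization factor (−0.84, 0.0562), with adjusted p up to 0.245.

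Of 12 co-receptors and ligand carriers, 10 were tested, 1 rose and 1 fell (median 0.17). FLRT3, a membrane protein that binds FGF receptors, rose from 156, 160.2 and 169 CPM to 231, 298 and 303 CPM, with no overlap (0.78 ± 0.17, adjusted p = 0.0092). FGFBP2, of the family of FGF-binding carriers, was called lower on 1 count in the 3 clinical drug libraries against 11 in saline, a ratio of 0.0596 with a 95% interval of 0.00138 to 0.41. Of 18 heparan sulfate proteoglycans and their enzymes, which present FGF to its receptor, 15 were tested and edgeR called 0 (median 0.05), with 1 at an unadjusted p under 0.05 and 0 in DESeq2. HSPG2, the highest of them, differed by −0.04 ± 0.12.

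Of 21 adaptors and kinases of the cascade, 19 were tested, 1 rose and 0 fell (median 0.09). It was PIK3R1, the regulatory subunit of PI3 kinase, at 85.7, 101 and 113 CPM in saline and 344, 181 and 225 CPM at 4 h, with clinical drug replicate 1 the highest (1.32 ± 0.19, adjusted p = 0.000632). PLCG1, a phospholipase bound by active receptors and the highest of the list, differed by 0.12 ± 0.09. Of 13 further feedback inhibitors, 7 were tested, 0 rose and 1 fell (median −0.38). DUSP7, a phosphatase of MAP kinases, went from 45.9, 38.3 and 35.7 CPM to 23.5, 19.6 and 31.0 CPM (−0.69 ± 0.16, adjusted p = 0.0156), and fell short of 1.5-fold without clinical drug 4 h replicate 2 (−0.57, 0.0578; range 0.00132 to 0.0668). RASA1, a RAS inactivator and the highest of that list, differed by 0.04 ± 0.09.

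Of 12 further immediate and ETS-family targets, 7 were tested, 0 rose and 4 fell, beside 7.40% of all genes called (median −0.72). CCND1, the cyclin of entry into the cell cycle, went from 163, 144 and 184 CPM to 62.8, 93.5 and 90.4 CPM (−0.998 ± 0.18, adjusted p = 0.00349). ETS1, an ETS factor abundant in endothelium, went from 86.1, 114 and 123 CPM to 66.9, 44.0 and 66.5 CPM (−0.86 ± 0.16, adjusted p = 0.00311). Neither pair of groups overlapped, and both genes thus moved the other way from ETV5 in the same libraries. ELK3, another ETS factor, fell by 0.72 ± 0.18 (adjusted p = 0.0232) and missed 1.5-fold without clinical drug 4 h replicate 2 (−0.55, 0.0744; range 0.00347 to 0.0744). FOSL1, a FOS-family factor, had 2, 1 and 4 counts against 5, 10 and 13 in saline (−2.27 ± 0.79, adjusted p = 0.0793). It missed the adjusted p without clinical drug 4 h replicate 1 (0.209) or 2 (0.166), without saline replicate 2 (0.169) or 3 (0.187), with Benjamini-Hochberg (0.116) and with no filter (0.162), where the lowest was 0.0457. ETS2, the highest of the list, differed by 0.09 ± 0.15. Endothelial markers (4 of 5 tested, PECAM1 the highest, none at 0) summed to 2591, 3094 and 3003 CPM in saline and to 2620, 2403 and 3317 CPM at 4 h, and 1 fell, KDR (−1.16); their part in the ETS1 result was not tested.

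Of 21 partners in branching, 13 were tested, 2 rose and 3 fell, beside 7.40% of all genes called (median −0.09). HHIP, which binds and restrains hedgehog ligands, rose from 37.4, 45.3 and 33.2 CPM to 91.1, 73.6 and 75.3 CPM (1.05 ± 0.27, adjusted p = 0.0245). GLI3, a hedgehog effector, fell from 23.0, 20.8 and 25.9 CPM to 16.7, 9.27 and 10.2 CPM (−0.93 ± 0.22, adjusted p = 0.0174), and neither pair of groups overlapped. GLI2, the related effector, fell by 0.72 ± 0.23 (adjusted p = 0.0544), and HGF, a mesenchymal ligand that also drives epithelial growth, fell by 0.85 ± 0.26 (adjusted p = 0.0511). TBX5, a mesenchymal factor upstream of FGF10, rose by 0.59 ± 0.12 (adjusted p = 0.0062), and NKX2-1, the master factor of lung epithelium, differed by 0.33 ± 0.15 (adjusted p = 0.182). GLI2 missed the adjusted p without clinical drug 4 h replicate 1 (−0.55, 0.156) and without saline replicates 1 (−0.78, 0.104), 2 (−0.73, 0.11) or 3 (−0.68, 0.147), with the lowest at 0.0238, and HGF without clinical drug replicates 2 (−0.75, 0.147) or 3 (−0.79, 0.128), without saline replicate 3 (−0.53, 0.232) and with only these 2 groups (−0.87, 0.137), with the lowest at 0.0156. TBX5 lay at the 1.5-fold threshold and was called in 5 of 15 alternatives, while its adjusted p stayed within 0.000161 to 0.0338. It fell under the threshold without clinical drug replicates 2 (0.57) or 3 (0.49) and without saline replicate 3 (0.51). So it did with RLE scaling (0.58), filterByExpr (0.57), no filter on low counts (0.58) and DESeq2 (0.58). The same held with no normalization factor (0.47), with only these 2 groups (0.57) and without the consecutive identifiers (0.57).

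At 6 h after Beta-Ac, PIK3R1 alone of these lists was called; in each of the other 6 lists edgeR called 0, with 0 to 4 genes at an unadjusted p under 0.05 and 0 in DESeq2. It stood at 185, 174 and 211 CPM, above every saline library (0.93 ± 0.19, adjusted p = 0.0588). The call ended without saline replicate 1 (0.81, 0.288), saline replicate 2 (0.93, 0.161) or Beta-Ac 6 h replicate 3 (0.84, 0.328), with the lowest at 0.000674. The list medians ran from −0.21 for the other ligands to 0.14 for the co-receptors, beside 0.02 for all genes. Between the early groups, ETS1 and CCND1 were lower after the clinical drug by tests of the difference itself (−0.76 ± 0.16 and −0.65 ± 0.18), 2 of the 7 targets tested, beside 6.74% of all genes called. Also called there were 3 of the 13 branching partners, GLI3, GLI2 and HGF (−0.82, −0.68 and −0.86), 3 of the 10 co-receptors and carriers (2 higher and 1 lower), 1 of the 15 proteoglycans and enzymes (higher) and, in edgeR, 0 in the other 3 lists, which had 1 to 5 genes at an unadjusted p under 0.05 and 1 called by DESeq2, IL17RD.

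The genes whose log2 CPM ran most like ETV5, the 1 FGF gene called against saline, were sought among 12448 genes with a symbol over the 15 lung libraries. WDR25 came first with Pearson's r of 0.863 (Spearman's rho 0.832), followed by BOC, a hedgehog co-receptor, with 0.862 (0.818) and CACNA1D, a calcium channel subunit, with 0.856 (0.85). Without the 2 libraries farthest from the median of ETV5, r was 0.861, 0.791 and 0.853. The libraries share the 5 treatment groups, so these values describe a likeness of pattern and no more.

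In the hippocampus, 9 of the 10 genes matched an identifier among 32386, and the 9 were among 17390 tested. FGFR4 matched none, and FGF10 (ENSMMUG00000047162) did. FGF7 was thinly counted, with 24 to 64 counts per library, and FGF10 had 127 to 390. Levels were not compared with those of lung, since the tables were scaled separately.

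**Figure D3:**
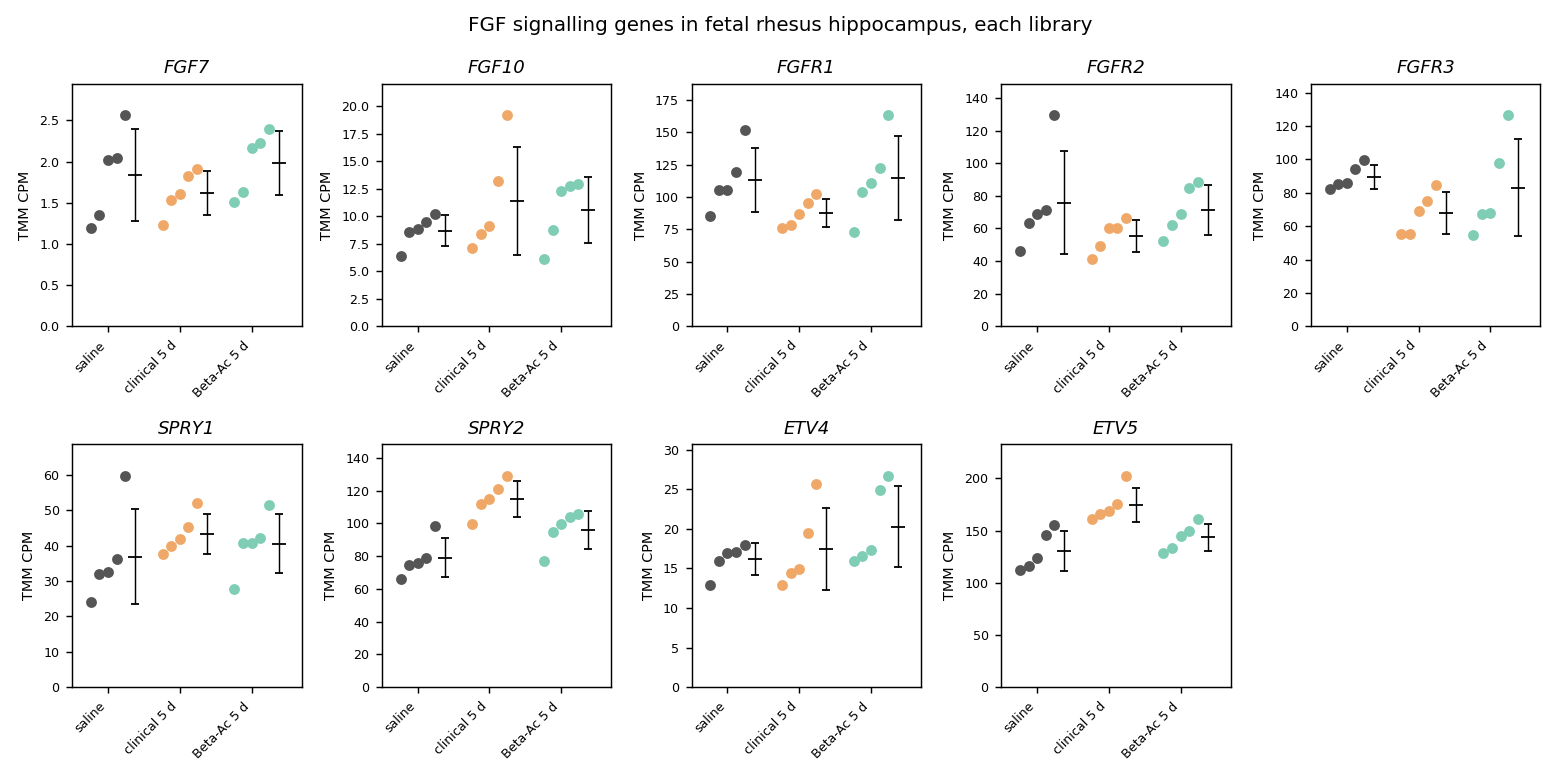
TMM CPM (y axis) of the 9 matched FGF genes in each of the 15 fetal hippocampus libraries, by group (x axis), with the points of a group sorted by value and bars at the mean ± SD. SPRY2 lay at 99.5 to 129 CPM and ETV5 at 161 to 202 CPM 5 days after the clinical drug, above the saline libraries at 66.3 to 98.6 and 112 to 155 CPM.

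At 5 days after the clinical drug, SPRY2 and ETV5 were higher than in saline by adjusted p, but neither was called. SPRY2 stood at 66.3, 74.7, 98.6, 76.0 and 79.1 CPM in saline replicates 1 to 5 and at 112, 121, 129, 99.5 and 115 CPM after the clinical drug. The groups were apart by less than 1 CPM, between saline replicate 3 and clinical drug replicate 4. ETV5 stood at 112, 146, 155, 124 and 116 CPM in saline and at 169, 166, 161, 176 and 202 CPM after the clinical drug, again with no overlap. Both passed by adjusted p alone, SPRY2 with 0.55 ± 0.11 (1.46-fold, adjusted p = 0.0142) and ETV5 with 0.42 ± 0.10 (1.34-fold, adjusted p = 0.022), 2 of 9 beside 21.9% of all genes. Because both lay under 1.5-fold, edgeR called 0 of 9, beside 7.86% of all genes (1366, 435 higher and 931 lower), with 2 of the 9 at an unadjusted p under 0.05 and 0 called by DESeq2, beside 5322 and 1449 of all genes. The median of the 9 was 0.11, and that of all genes −0.02. Beside that background, 2 genes that passed by adjusted p alone are no result about the group as a whole. ETV5 lost that pass with sequencing run as a term, and both genes lost it in the runs that held all groups, as given below.

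The receptors were lower on average without passing. FGFR1 stood at 105, 85.2, 105, 152 and 119.7 CPM in saline and 75.7, 78.8, 95.1, 87.2 and 102 CPM after the clinical drug (−0.37 ± 0.18, adjusted p = 0.183). FGFR3, which marks astrocytes and their precursors in brain, stood at 82.2, 85.6, 99.4, 94.2 and 85.9 CPM and 55.2, 55.4, 84.6, 68.9 and 74.8 CPM (−0.40 ± 0.19, adjusted p = 0.168). FGFR2 stood at 71.4, 46.0, 68.7, 63.6 and 129 CPM and 60.2, 41.3, 66.2, 49.2 and 60.3 CPM (−0.45 ± 0.23, adjusted p = 0.196). The groups overlapped for each receptor, and the highest FGFR2 value belonged to saline replicate 5, the library with choroid plexus markers; without it the difference was −0.17 (adjusted p = 0.556). FGF10 ranged from 6.36 to 10.2 CPM in saline and from 7.12 to 19.2 CPM after the clinical drug (0.39), and FGF7, SPRY1 and ETV4 differed by −0.18, 0.23 and 0.11, with SPRY1 highest in saline replicate 5 at 59.7 CPM. Without that library SPRY1 differed by 0.48 and passed by adjusted p alone (0.0663). Over its 23 alternatives the SPRY1 difference ran from −0.16 to 0.51, so its direction was not the same in all of them.

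Without saline replicate 5, SPRY2 differed by 0.55 (adjusted p = 0.0176) and ETV5 by 0.38 (0.0367), and without saline replicate 1 by 0.49 (0.0406) and 0.37 (0.0591). The labels name 4 sequencing runs, of which 2 held saline libraries only. With run as a term SPRY2 differed by 0.36 (0.084) and ETV5 by 0.37 (0.141). In the 12 libraries of the runs with all groups they differed by 0.39 (0.202) and 0.38 (0.203). Of saline, those 12 hold only replicates 3 and 5, and replicate 5 is the library with choroid plexus markers. In both alternatives the saline side rests on these 2 libraries, so run and the smaller saline group cannot be told apart. SPRY2 passed the fold threshold too without saline replicate 3 (0.64, 0.0148), without clinical drug replicate 4 (0.59, 0.0342) and in the 9 animals that also gave a lung library (0.60, 0.0427), and FGFR2 was called with run as a term (−0.80, 0.0985). Grouped by the treatment field, which swaps the drugs, SPRY2 differed by 0.28 (0.335) and ETV5 by 0.14 (0.618), the highest adjusted p of each, with the lowest at 0.000256 and 0.00204. With no normalization factor, 246 genes were called higher and 1443 lower. Of all genes, 229 were called in the runs with all groups and 0 with groups of the treatment field.

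Astrocyte markers (5 of 5 tested, SLC1A3 the highest, none at 0) summed to 2378, 2466, 3569, 2699 and 2622 CPM in saline and to 4287, 3346, 4536, 3823 and 3599 CPM after the clinical drug, with AQP4 higher (0.93 ± 0.23, adjusted p = 0.0225). In the Beta-Ac libraries they summed to 4071, 2988, 4097, 2395 and 4308 CPM. Microglial markers (2 of 5 tested, P2RY12 the highest, none at 0) summed to 79.7, 46.2, 112, 62.2 and 63.6 CPM in saline and to 108, 131, 110, 71.0 and 116 CPM after the clinical drug, with P2RY12 higher (0.85). Endothelial markers (4 of 5 tested, KDR the highest, none at 0) summed to 140, 157, 202, 106 and 318 CPM and to 156, 133, 142, 127 and 182 CPM, with VWF lower (−0.86), and proliferation markers (5 of 5 tested, PCNA the highest, none at 0) to 70.1, 64.1, 73.9, 56.4 and 88.8 CPM and to 77.8, 72.9, 74.5, 62.1 and 64.0 CPM, with CDK1 higher (0.80). The part of these markers in the SPRY2 and ETV5 results was not tested.

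After Beta-Ac, SPRY2 stood at 104, 99.5, 106, 76.8 and 94.9 CPM and ETV5 at 149.8, 133, 129, 161 and 145 CPM, between the other groups and overlapping saline. The differences from saline were 0.28 ± 0.11 for SPRY2 (adjusted p = 0.335) and 0.14 ± 0.10 for ETV5 (adjusted p = 0.618). In edgeR, 0 of 9 were called, beside 0% of all genes, with 1 of the 9, SPRY2, at an unadjusted p under 0.05, beside 2133 of all genes, and DESeq2 called 0 of the 9 and 138 of all genes. Without Beta-Ac replicate 1, 184 of all genes were called, and in the runs with all groups 18. Without Beta-Ac replicate 4, a library that stood apart, SPRY2 differed by 0.35 (adjusted p = 0.264) and ETV5 by 0.09 (0.702). The order of the means was saline, Beta-Ac and clinical drug for both genes, at 78.9 ± 12, 96.1 ± 11.6 and 115 ± 11 CPM for SPRY2 and 131 ± 18.9, 144 ± 12.9 and 175 ± 16.3 CPM for ETV5. Over 23 alternatives, the Beta-Ac difference from saline ran from 0.09 to 0.55 for SPRY2 and from 0.003 to 0.42 for ETV5. Those include the grouping by the treatment field, which swaps the drugs. Between the drugs at 5 days, the difference was 0.26 for SPRY2 (95% interval 0.02 to 0.50, adjusted p = 0.334) and 0.28 for ETV5 (0.06 to 0.50, adjusted p = 0.272), where every clinical drug library lay at or above every Beta-Ac library. For FGFR1 and FGFR2 it was −0.39 (−0.78 to 0.00) and −0.36 (−0.85 to 0.13). There too edgeR called 0 of 9, beside 0% of all genes (13 genes with run as a term), with 2 at an unadjusted p under 0.05 and 0 in DESeq2, beside 2346 and 180 of all genes, and a p that misses the threshold does not show that they act alike. The medians of the 9 were 0.14 after Beta-Ac and −0.21 between the drugs, and those of all genes −0.01 and 0.00.

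In the hippocampus after the clinical drug, edgeR called 1 of 16 proteoglycans and enzymes, 2 of 21 adaptors and kinases and 1 of 9 feedback inhibitors. In each other list it called 0, beside 7.86% of all genes. Beside that background, these calls are no result about the lists as a whole. Among the genes that passed, 3 are described, chosen after their values were seen. SPRED1, a Sprouty-related inhibitor, rose by 0.60 ± 0.23 (adjusted p = 0.0939), and the kinase MAP2K2 fell by 0.64 (adjusted p = 0.0318). HSPG2, a proteoglycan of basement membranes, fell by 1.06 ± 0.34 (adjusted p = 0.0502), and without saline replicate 5 it differed by −0.56 (adjusted p = 0.118; range 0.0139 to 0.582). With sequencing run as a term, SPRED1 differed by 0.31 (0.189, range 0.0326 to 0.66) and MAP2K2 by −0.54 (0.0777, range 0.0055 to 0.951), neither of them called. Calls also ended for HSPG2 without clinical drug replicate 3 (−1.04, 0.101), for MAP2K2 without clinical drug replicate 1 (−0.54, 0.0749), and for SPRED1 without any 1 of saline replicates 1, 2, 4 and 5 (0.193, 0.16, 0.147 and 0.152) and clinical drug replicates 1 to 4 (0.171, 0.178, 0.181 and 0.101), with no filter on low counts (0.119) or with no normalization factor (0.106). With groups taken from the treatment field none of the 3 was called, and in the runs that held all groups only HSPG2 was (0.0967). Meningeal markers (4 of 5 tested, COL3A1 the highest, none at 0) summed to 172, 297, 158, 91.5 and 667 CPM in saline and to 173, 81.6, 40.5, 58.6 and 64.1 CPM after the clinical drug, and 3 of them fell; their part in the HSPG2 result was not tested. After Beta-Ac, edgeR called 0 genes of these lists, with 0 to 4 in a list at an unadjusted p under 0.05, and DESeq2 called 1, IL17RD.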

How the data were processed

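The deposited files gave read counts per gene, 1 table a tissue, made by the authors with Bowtie and featureCounts; the submitters' notes name Bowtie 1.2.1.1 and featureCounts 1.5.1 for lung, and Bowtie2 and featureCounts without versions for hippocampus. Each tissue's 15 libraries were fitted together in edgeR 4.0.16 (R 4.3.3, limma 3.58.1) with TMM factors and the quasi-likelihood F-test, on genes with at least 7 counts in at least 3 (lung) or 5 (hippocampus) libraries. Adjusted p-values were Storey's in lung and Benjamini-Hochberg in hippocampus, over all genes tested. A called gene had p under 0.05, a fold change of at least 1.5 and adjusted p under 0.1. Prior counts were 0.125 for fold changes and 2 for log2 CPM. SE is the fold change over the square root of F; the tool treats libraries as independent. The method was tested on simulated data, and no result of that test is given here.

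The members and lists were chosen with earlier results of these data known. Genes named were the 10 members; in each pathway list, genes called in any lung comparison with saline, up to the 5 with the smallest p, and the gene with the highest mean lung CPM; and, for each member so called, the 3 tested genes most alike by Pearson's r. FGFBP2's interval covers counting error only.

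The alternatives were RLE scaling, filterByExpr, no filter, the other adjustment, no fold threshold, only the groups compared, DESeq2 1.42.0 and each library left out. For hippocampus they were also sequencing run as a term, only the runs with all groups, groups of the treatment field and only animals with a lung library. Leaving out the 37 identifiers and testing with no normalization factor were chosen after seeing the data. No sequence or gene length was used. Differences between the tissues were not analysed here, since their library protocols differ.

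A further gene of the pathway lists that passed in the hippocampus is not reported here.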

Additional observations from a re-analysis of the deposited data

Results flagged for a closer look

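In lung, 3 differences between groups, each of which also has a contrast with saline, passed a test of the difference itself. FGFR2 differed by −0.61 (log2) between the early groups of the 2 drugs (4 h and 6 h), which differ in dose and time. SPRY1 differed by 0.68 and ETV5 by 0.77 between 4 h and 5 days after the clinical drug. Of 27 groups of 5 hippocampus libraries, 1 for each gene and group, 0 held a library far from the others by Dixon's test; lung groups of 3 were not tested.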

How the results depend on the processing

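Of 1581 fold changes of the FGF genes recomputed under the alternatives, 1482 stayed called or, where not called, moved by less than 1 SE, 74 moved by more than that without a call, 17 passed the thresholds newly, 8 no longer passed and 0 reversed as called values. The SPRY1 and ETV5 calls between 4 h and 5 days after the clinical drug held in 15 of 15 alternatives. With no fold threshold, the FGF genes called were 3 for the clinical drug at 4 h against saline, 2 for it against Beta-Ac at 6 h, 1 for Beta-Ac at 6 h against 5 days and 2 for the clinical drug in hippocampus. DESeq2 called 1 for Beta-Ac at 6 h against saline and 1 against 5 days. Fitting only the 2 groups gave 0 for the clinical drug at 4 h against Beta-Ac at 6 h. That fit has fewer libraries to estimate the spread, whose part in the lost call was not tested. No normalization factor gave 0 for the clinical drug at 4 h against saline, where the shift of all genes by −0.12 brought ETV5 under 1.5-fold. In hippocampus, sequencing run as a term gave 1 and the animals with a lung library 1 for the clinical drug against saline; the cause was not tested. With each library left out in turn, the counts ranged from 0 to 1 for the clinical drug at 4 h and for Beta-Ac at 6 h against saline, between those early groups, for Beta-Ac at 6 h against 5 days and for the clinical drug in hippocampus. No paired analysis was possible because the groups are different animals. ETV4 in lung, from 58 counts, had an SE of 0.34 for the clinical drug at 4 h against saline. FGF7 in hippocampus, from 24 counts, had an SE of 0.24 for the clinical drug against saline. An SE is not the smallest difference that can be seen, which is larger. ETV4 in lung differed by −0.81 ± 0.34 at 5 days after the clinical drug and was not called. The part of the low counts in these SEs was not tested, and FGFR2 in hippocampus, with more counts, had an SE of 0.23.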
